A study of Drosophila melanogaster with 12 samples.

Results

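The comparison described here sets the foreleg transcriptome of male Drosophila melanogaster of the strain CS against the mean of the strains CO13N and RG11N. It uses 9 of the 12 libraries of the study, 3 from CS and 6 from CO13N and RG11N (3 each); the 3 libraries of a CS/CO13N hybrid stayed out of the test and are described at the end. The study measured polyA-selected RNA of whole forelegs, and describes CS and RG11N as promiscuous and CO13N and the hybrid as selective. The groups are given by strain name only: no age, rearing or further genotype is stated, nor the direction of the hybrid cross, and replicates are described as biological without saying how many flies each holds. CS therefore shares its behavioural class with RG11N and not with CO13N, and the contrast asks which transcripts set CS apart from both.

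The foreleg of a male fly carries taste hairs with which it touches other flies, and neurons in those hairs read contact pheromones through ion channels and receptors. Around these neurons lie support cells that secrete binding proteins and detoxifying enzymes, as well as glia, epidermis that maintains the cuticle, muscle and blood cells. Neuropeptides and monoamines act on such sensory cells through G protein-coupled receptors and can set how strongly they respond. A whole leg holds all of these cells, and in such bulk samples fewer cells of a type and less RNA per cell cannot be told apart.

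Total counts per library were 26374831 to 30041530 in CS, 32081421 to 36034966 in CO13N and 29916686 to 33469978 in RG11N. Levels are given in CPM, the counts of a gene scaled to a common library size. Correlations of log2 CPM between replicates were 0.922 to 0.931 in CS, 0.944 to 0.958 in CO13N and 0.931 to 0.945 in RG11N. The taste-hair channel ppk23, a pheromone receptor subunit of the leg, was at 980, 919 and 1390 CPM in CS, 882, 1160 and 1300 CPM in CO13N and 1570, 1850 and 1800 CPM in RG11N. The 4 testis and accessory gland markers checked had no count in any of the 9 libraries, but a wider list of 13 such genes did. Its sum was 38.2, 38.9 and 29.1 CPM in CS, 24.5, 27.7 and 30.1 CPM in CO13N and 26.8, 34.6 and 29.5 CPM in RG11N. Muscle transcripts varied within every strain, and the sum of 6 of them was 8680, 4710 and 2050 CPM in CS, 9310, 1540 and 1590 CPM in CO13N and 693, 3660 and 2250 CPM in RG11N. P-values below measure the spread between these libraries, part of which may be technical.

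Antennal transcripts were high in CS and are treated separately. The summed odorant receptor genes reached 88.6, 248 and 139 CPM in the CS libraries, against 13.5, 13.7 and 17.9 CPM in CO13N and 21.7, 24.1 and 138 CPM in RG11N. All 3 CS libraries and replicate 3 of RG11N were high, and the CS range overlapped that of RG11N through this one library. Obp83a, an odorant-binding protein of antennal hairs, was at 367, 1180 and 619 CPM in CS, 3.45, 5.05 and 7.04 CPM in CO13N and 8.78, 6.18 and 341 CPM in RG11N. Os-C, an olfactory-specific protein, was at 121, 470 and 245 CPM in CS, had no count in CO13N, and was at 0, 0.635 and 195 CPM in RG11N. The odorant-binding protein lush did not follow this pattern, with 60.9, 225 and 103 CPM in CS, 58.7, 80.6 and 142 CPM in CO13N and 1.4, 3.28 and 82.3 CPM in RG11N, so that CS overlapped both other strains.

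**Figure D1:**
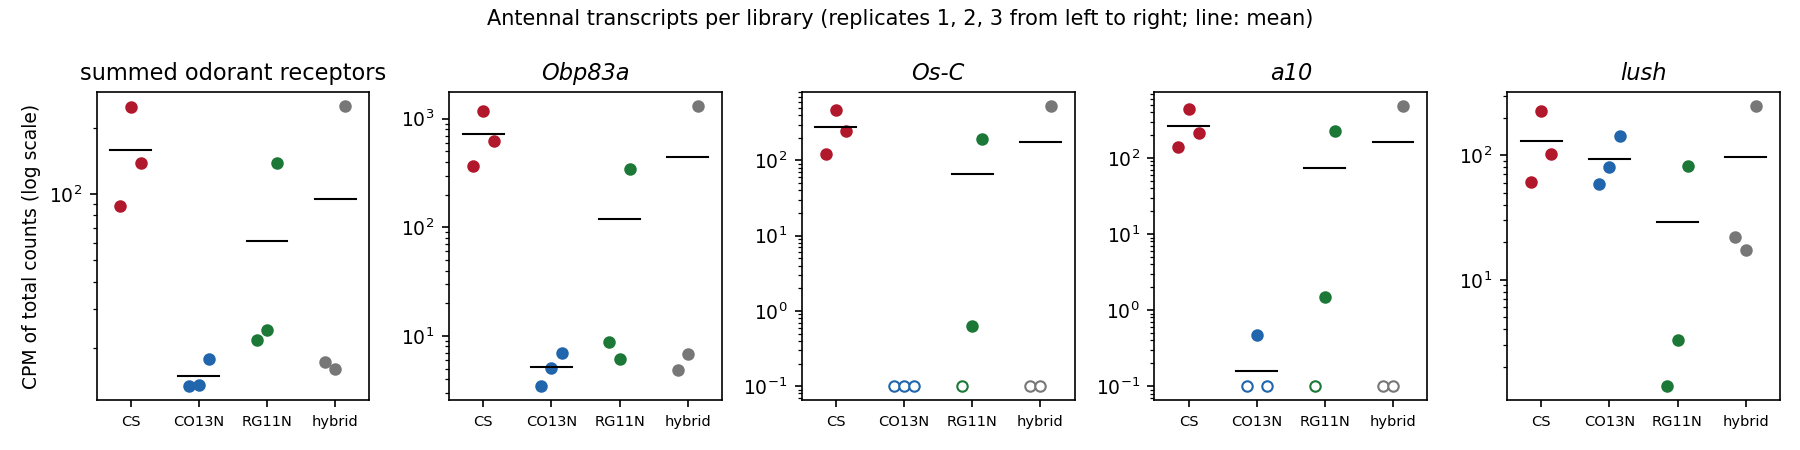
Antennal transcripts in each library, in CPM of total counts on a log axis, for the summed odorant receptor genes and 4 single genes. Points are libraries in replicate order, lines are means and open circles mark libraries without a count. All 3 CS libraries, replicate 3 of RG11N and replicate 3 of the hybrid stand above the rest, except for lush.

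None of the typical antennal genes Obp83a, Os-C and a10 passed the test. Obp83a differed by 4.89 ± 1.32 on the log2 scale (adjusted p = 0.136), Os-C by 9.10 ± 3.37 (adjusted p = 0.316) and a10, another antennal protein, by 6.24 ± 2.07 (adjusted p = 0.214; edgeR's quasi-likelihood test, Benjamini-Hochberg). Of the 58 tested genes in the antennal and odorant receptor lists, 52 had a fold change above 0, with a median log2 fold change of 4.22. In that list 31 had an unadjusted p under 0.05, as did 1707 of all 10646 tested genes (16%), and 3 passed after adjustment, Or67d and Or56a higher and Or45a lower in CS. Or67d, a receptor for the male pheromone cVA, was at 2.47, 5.05 and 0.796 CPM in CS, had no count in CO13N, and was at 0.224, 0.538 and 2.72 CPM in RG11N. CS overlapped RG11N, and the call (adjusted p = 0.0322) was lost without replicate 1 or 2 of CS, 2 or 3 of CO13N or 2 of RG11N (adjusted p = 0.0518 to 0.187). The calls on Or56a and Or45a were lost in 7 and 8 of the 9 fits that left out 1 library. A further 64 genes outside the lists were at least 3 times higher in replicate 3 of both RG11N and the hybrid than in their other replicates. This choice widens the spread within RG11N that the test uses, which makes a call unlikely beforehand. None of those 64 was called with edgeR (20 at an unadjusted p under 0.05), which is not read as a lack of difference. Their median log2 fold change was 1.61. Among them was Est-6, a carboxylesterase also carried in semen, at 56.1, 156 and 97.3 CPM in CS, 0.783, 0 and 1.16 CPM in CO13N and 0.644, 1.58 and 43.2 CPM in RG11N. Another was the insecticide-resistance P450 Cyp6g1, at 93.6, 173 and 102 CPM in CS, 25.7, 19.3 and 14.7 CPM in CO13N and 24.2, 29.5 and 218 CPM in RG11N. Est-6 had an adjusted p of 0.141 and Cyp6g1 of 0.391.

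Across all genes, 400 of 10646 tested differed between CS and the mean of CO13N and RG11N at an adjusted p under 0.05, which is 3.76% of the genes. Of these, 210 (1.97%) were higher and 190 (1.78%) lower in CS, and 211 differed at least 2-fold. The median log2 fold change over all tested genes was 0.01. A gene was counted as private to CS when it was called, when no CS library overlapped any of the other 6, and when CO13N and RG11N differed from each other by at most 0.5 of the contrast on the log2 scale. This left 200 genes (1.88%), 98 higher (0.921%) and 102 lower (0.958%) in CS. Without regard to the test, the CS libraries lay apart from the other 6 in 797 genes (7.49%).

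The private rule was set to separate a change in CS from a change in one of the other strains. It does so weakly for genes without a count in CS, where the fitted contrast is large and lets a wide gap pass. Osi17 passed with means of 0.714 CPM in CO13N and 5.73 CPM in RG11N. CG15347 passed with 3.98 CPM in CO13N and 0.524 CPM in RG11N. For such genes the rule shows that CS was lowest, but not that CO13N and RG11N were alike. Where no overlap is reported for a private gene, the rule required it, so it adds nothing to the call. At its edge, Arc1 lay just inside with a gap between CO13N and RG11N of 0.5 times the contrast, and the glutathione transferase GstD3 just outside with 0.502, at means of 14.8 CPM in CS, 30.5 CPM in CO13N and 49.4 CPM in RG11N. Among the called genes that were not private, 57 higher and 37 lower in CS had overlapping libraries, and 55 higher and 51 lower had too wide a gap between CO13N and RG11N. Called genes with such a gap included the P450 Cyp6a23, at 21.6, 18.2 and 24.3 CPM in CS, 54.9, 49.3 and 56.3 CPM in CO13N and 362, 334 and 367 CPM in RG11N. In Cyp6a23 the difference from RG11N was the larger one (-4.05 ± 0.15, beside -1.32 ± 0.14 from CO13N). These values share the CS libraries.

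Private genes were 186 protein-coding genes, 6 pseudogenes, 6 noncoding RNAs and 2 identifiers without annotation. The median log2 fold change was 1.16 in the higher genes and -1.32 in the lower ones, and 51 and 68 of them differed at least 2-fold. They made up 2.41% of the tested genes on chromosome arm 2L, 1.56% on 2R, 2.12% on 3L, 1.77% on 3R, 1.55% on X and 2.13% on chromosome 4. The exons of 48 private genes overlap another gene, for 38 of them only on the opposite strand, and whether the counting used strand is not given in the sources used here.

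**Figure D2:**
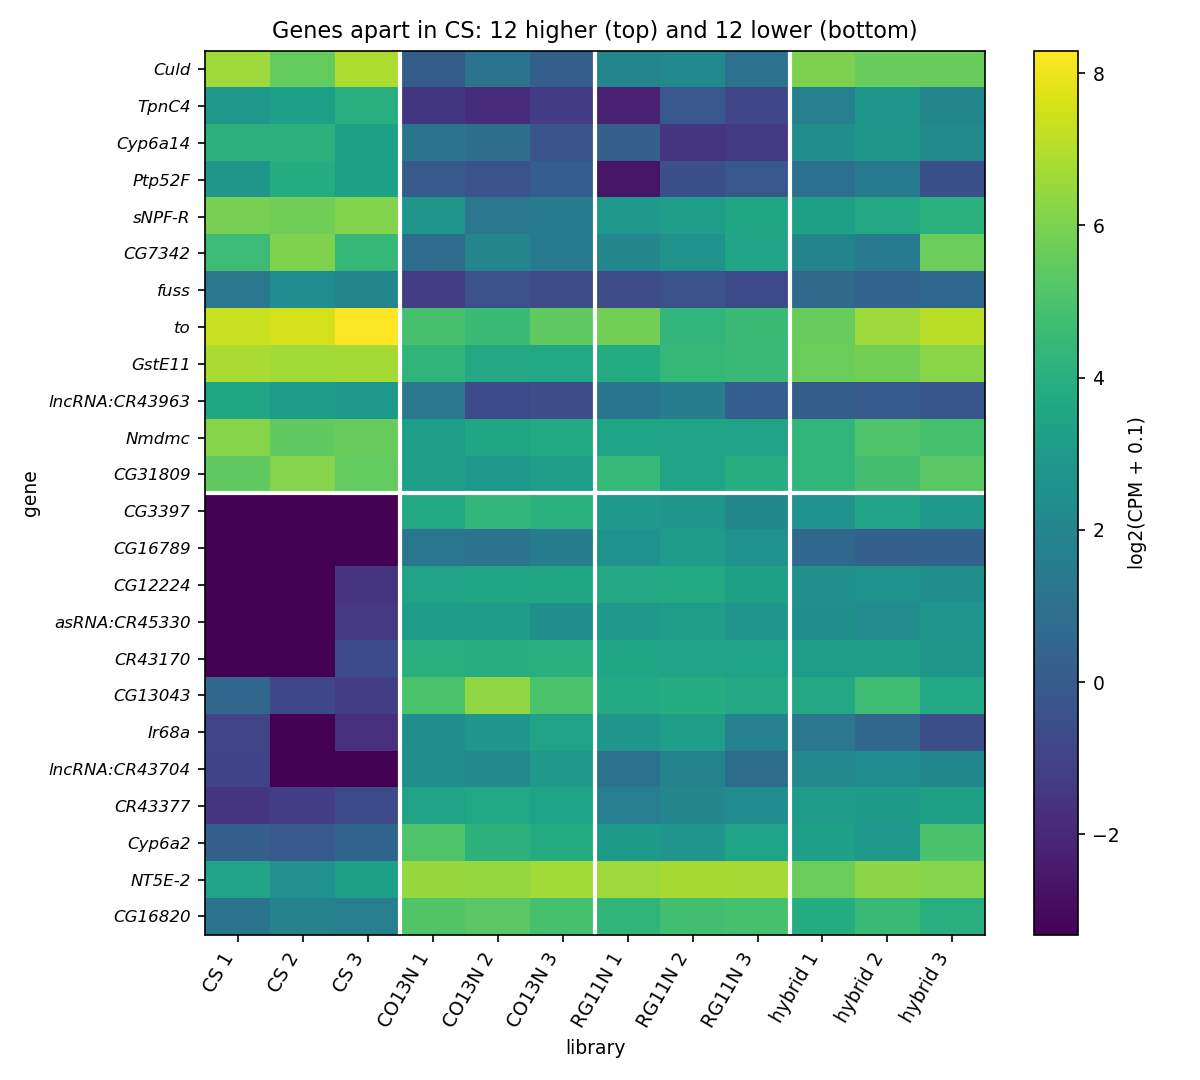
Levels of the 12 private genes with the largest fold change in each direction among those with a mean log2 CPM of at least 0 over the 9 libraries and no antennal mark, as log2(CPM + 0.1), in the 9 libraries of CS, CO13N and RG11N and, at the right, in the 3 hybrid libraries. The 12 genes above the white line are higher in the 3 CS libraries than in all 6 CO13N and RG11N libraries, and the 12 below are lower.

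Replicate 3 of the hybrid, which the rule did not use, also held antennal transcripts. In it, over the mean of the other hybrid replicates, the private higher genes had a median log2 ratio of 0.13 and the private lower genes -0.08, beside 4.26 for the antennal and odorant receptor lists and -0.01 for all genes. In replicate 3 of RG11N the same medians were 0.04, -0.05, 3.62 and 0.01. There the private rule itself removes genes that are high in this library, so nothing is read from these medians. Of the 58 list genes, 44 were at least 1.5-fold higher in both libraries, so the rule also limits the hybrid medians. Nothing is concluded from those either. At least a 1.5-fold rise in both of these libraries was seen in 7 of the 98 private higher genes and 0 of the 102 lower genes. Over all tested genes it was seen in 390 of 10646. The rule also limits the counts of private genes. The 7 were CG9498, Tina-1, fabp, CG7342, OS9, CG31075 and CG31189, named after their values were seen apart from CG7342. When the summed odorant receptor level of each library was added to the fit, all 200 private genes kept their sign and 40 kept their call. In this fit 24 genes were called higher and 43 lower in CS; the receptor sum was high in every CS library and in only 1 of the other 6, and its part in each result was not tested further.

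The receptor for short neuropeptide F, a peptide that raises the sensitivity of sensory neurons in hungry flies, was higher in CS. sNPF-R (FBgn0036934; chromosome arm 3L, 20058511 to 20089007, dm6) was at 60.1, 54.8 and 67.5 CPM in CS, 6.48, 2.33 and 2.69 CPM in CO13N and 7.25, 9.08 and 11.7 CPM in RG11N. All 3 CS libraries lay far above the other 6, with no overlap. The averaged difference was 3.35 ± 0.28 on the log2 scale (edgeR adjusted p = 2.32e-05), and it was called in all 9 fits that each left out 1 library (9 omissions) and with the odorant receptor sum in the fit (3.07, adjusted p = 0.0498). Against CO13N alone the difference was 3.99 ± 0.37 and against RG11N alone 2.70 ± 0.35; these 2 values share the CS libraries.

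The peptide gene sNPF (FBgn0032840; 2L, 20027915 to 20056373) was also higher in CS, by less. It was at 36.2, 70.1 and 68.6 CPM in CS, 30.4, 28.7 and 28.7 CPM in CO13N and 30.6, 30.8 and 33.7 CPM in RG11N. Replicate 1 of CS was close to the other strains, while the 6 others lay within a narrow range below it. The difference was 0.94 ± 0.18 (adjusted p = 0.00785); it was not called without replicate 2 of CS (adjusted p = 0.0661) or with the receptor sum in the fit (0.53, adjusted p = 0.696).

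Burs, the alpha subunit of the tanning hormone bursicon, went the other way. It had no count in any CS library, and was at 2.29, 1.06 and 2.11 CPM in CO13N and 4.70, 4.95 and 6.64 CPM in RG11N. Burs (3R, 21769518 to 21770279) was thus at least 100-fold lower in CS, taking 3 counts over the pooled CS libraries as the floor (adjusted p = 0.000504). CCHa1, a peptide of gut and brain cells, was at 41.4, 52.6 and 59.3 CPM in CS, 76.5, 96.5 and 82.9 CPM in CO13N and 78.0, 84.2 and 104 CPM in RG11N, with no overlap. It differed by -0.77 ± 0.15 (adjusted p = 0.00828), a call lost without replicate 1 of CS (adjusted p = 0.053). In all, 26 neuropeptide genes were tested, of which sNPF and NPF were called higher and Burs, CCHa1 and ITP lower in CS. This is 19.2% called, beside 3.76% of all genes.

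NPF and ITP were called but not private. NPF, a feeding-related peptide and the only one of these named after its values were seen, was at 51.1, 43.1 and 76.7 CPM in CS, 54.1, 35.2 and 58.1 CPM in CO13N and 7.73, 18.3 and 14.1 CPM in RG11N. CS thus overlapped CO13N, and RG11N alone was low. ITP, the ion transport peptide, differed by -0.51 ± 0.13 (adjusted p = 0.0414) and kept its call in 2 of the 9 omissions (adjusted p up to 0.248). The NPF call was lost without any single CS or CO13N library or replicate 3 of RG11N (adjusted p = 0.0672 to 0.127).

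Monoamine genes moved in both directions. Hn, the phenylalanine hydroxylase that makes tyrosine, was higher in CS at 117, 114 and 68.6 CPM, against 50.7, 51.6 and 39.6 CPM in CO13N and 47.4, 28 and 36.7 CPM in RG11N. It differed by 1.25 ± 0.19 (adjusted p = 0.00202) and was called without each library in turn. The tan gene t, whose product frees dopamine and histamine from their beta-alanine conjugates, was lower in CS at 61.0, 68.8 and 46.4 CPM, against 169, 261 and 161 CPM in CO13N and 225, 126 and 180 CPM in RG11N. Its difference of -1.67 ± 0.23 (adjusted p = 0.0015) was likewise called in all 9 omissions, and neither gene overlapped between the groups. Vmat, the vesicular monoamine transporter, was at 198, 213 and 145 CPM in CS, 329, 538 and 363 CPM in CO13N and 371, 253 and 249 CPM in RG11N. Vmat differed by -0.90 ± 0.20 (adjusted p = 0.0243), was not private, and lost its call without any single CS library (adjusted p = 0.0548 to 0.0781). With the odorant receptor sum in the fit none of Hn, t and Vmat was called (adjusted p = 0.251, 0.179 and 0.621). Of the 18 tested genes for transmitter synthesis and transport these 3 were the ones called (16.7%, beside 3.76% of all genes).

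Among 46 neurotransmitter receptors, 3 were called higher and 5 lower in CS (17.4%, beside 3.76% of all genes). TyrR, a receptor for tyramine, was at 1.35, 0.861 and 1.00 CPM in CS, 5.30, 3.96 and 4.62 CPM in CO13N and 8.40, 10.9 and 7.42 CPM in RG11N. The groups did not overlap, and the difference of -2.58 ± 0.38 (adjusted p = 0.00116) was called in all 9 omissions but not with the receptor sum in the fit (-2.11, adjusted p = 0.169), where 0 of the 46 receptors were called. Oamb, an octopamine receptor, fell by 0.88 ± 0.15 on the log2 scale in CS (adjusted p = 0.0031) but was not private, since CO13N stood higher than RG11N. The other members were nAChRalpha3, Dop1R2 and GABA-B-R3, lower in CS, and 5-HT7, Dop2R and mGluR, higher in CS. Of these, nAChRalpha3, 5-HT7 and Dop2R were not private. Dop2R averaged 34.5 CPM in CS, 33.5 CPM in CO13N and 11.8 CPM in RG11N, so RG11N alone was low. 5-HT7 averaged 25.1 CPM in CS, 9.14 CPM in CO13N and 20 CPM in RG11N. nAChRalpha3 averaged 2.31 CPM in CS, 6.95 CPM in CO13N and 31.4 CPM in RG11N. Dop1R2 and Dop2R each lost the call in 5 of the 9 omissions (adjusted p up to 0.114 and 0.111), 5-HT7 without replicate 3 of CS (adjusted p = 0.0514) and nAChRalpha3 without replicate 1 of CS (adjusted p = 0.0528).

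The metabotropic glutamate receptor mGluR and the GABA receptor GABA-B-R3, both named after their values were seen, were private in opposite directions. mGluR was at 5.21, 8.22 and 12.9 CPM in CS, 1.72, 3.26 and 4.46 CPM in CO13N and 3.44, 2.01 and 3.47 CPM in RG11N. GABA-B-R3 was at 0.507, 0.509 and 1.04 CPM in CS, 3.07, 6.21 and 2.17 CPM in CO13N and 8.43, 2.12 and 4.15 CPM in RG11N. Both calls were close to the threshold, at 1.52 ± 0.39 (adjusted p = 0.0451) and -2.65 ± 0.66 (adjusted p = 0.0371). mGluR lost its call without replicate 2 or 3 of CS, replicate 1 or 2 of CO13N or any RG11N library (adjusted p = 0.0582 to 0.232), and GABA-B-R3 without replicate 1 or 2 of CS, replicate 2 of CO13N or replicate 1 or 3 of RG11N (adjusted p = 0.0535 to 0.123).

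**Figure D3:**
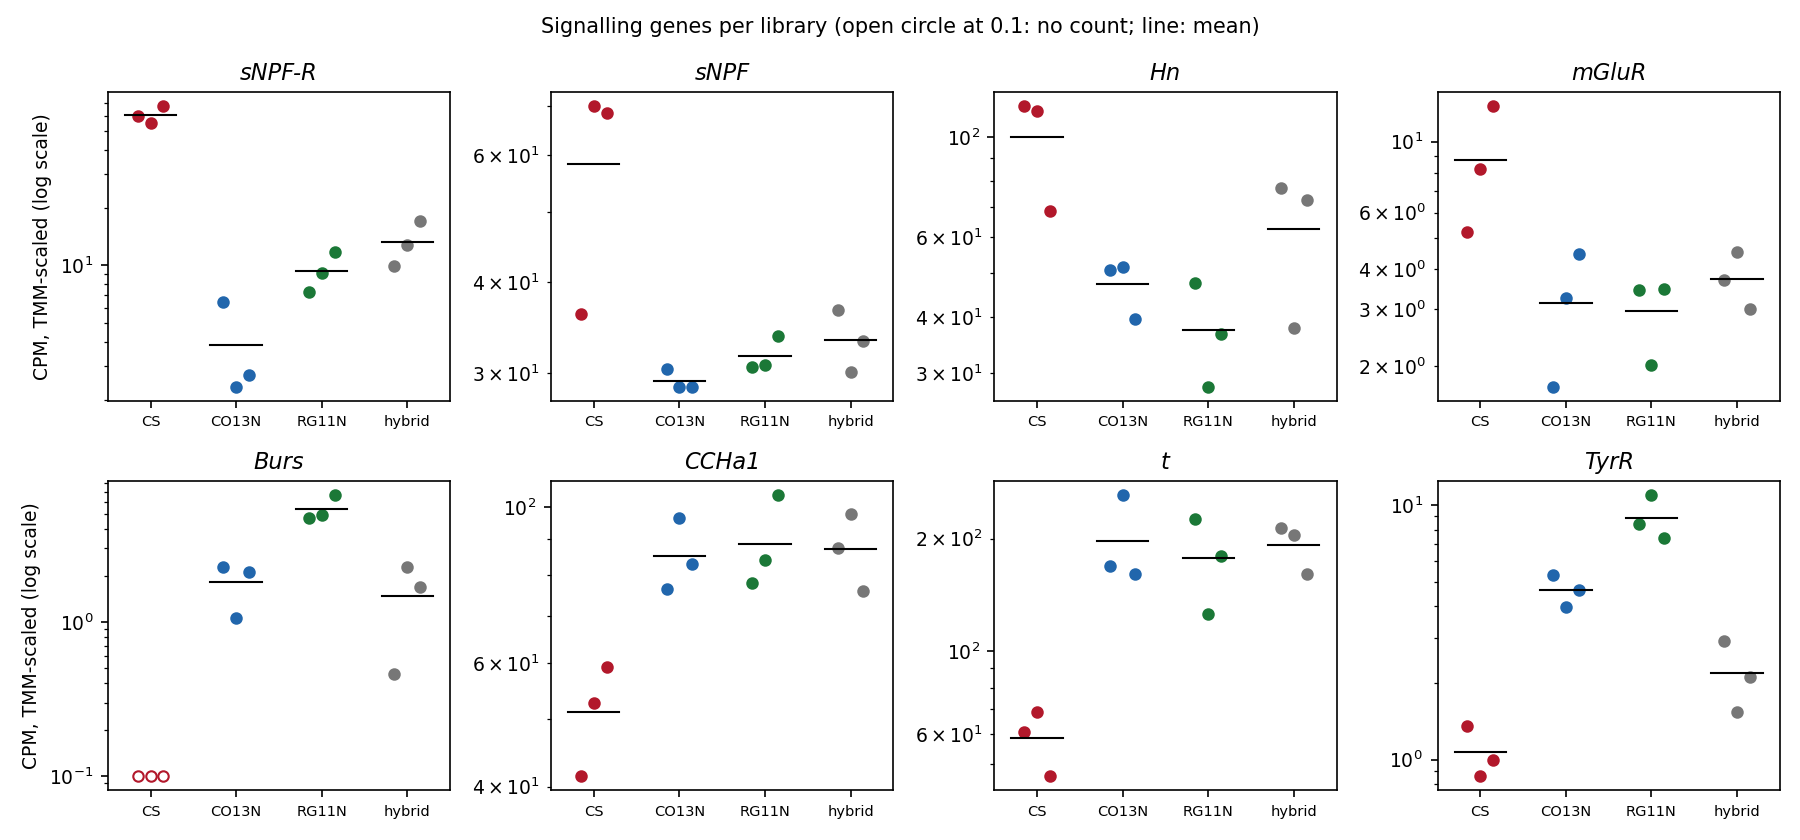
Levels of 8 signalling genes in each library, in TMM-scaled CPM on a log axis that differs between panels. Points are libraries, lines are means and open circles mark libraries without a count. sNPF-R, sNPF, Hn and mGluR are higher and Burs, CCHa1, t and TyrR lower in all 3 CS libraries than in the 6 CO13N and RG11N libraries.

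Chemosensory genes called in CS came from several families. Ir68a and Ir40a, which in the antenna serve the sensing of moist and dry air, were both lower in CS. Ir68a (3L, 11232972 to 11236218) was at 0.439, 0 and 0.208 CPM in CS, 5.09, 6.84 and 10.3 CPM in CO13N and 6.86, 8.65 and 3.37 CPM in RG11N, a difference of -4.93 ± 0.76 (adjusted p = 0.00183). Ir40a was at 4.09, 3.64 and 3.01 CPM in CS, 13.6, 12.6 and 13.7 CPM in CO13N and 15.6, 11.6 and 11.7 CPM in RG11N, a difference of -1.87 ± 0.25 (adjusted p = 0.000397). In both genes the CS libraries lay below all others, and in both the call held in all 9 omissions and was lost with the receptor sum in the fit (adjusted p = 0.12 and 0.0997). The summed odorant receptors were high in the CS libraries, and their part in these 2 differences was not tested further. Within RG11N, Ir68a was lowest in replicate 3, where that sum was also high, and Ir40a was not. Ir60c, annotated as a pseudogene, had no count in CS and was at least 80.9-fold lower there (adjusted p = 0.00602).

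Of 35 ionotropic receptors tested, 0 were called higher and 5 lower in CS with edgeR (14.3%, beside 3.76% of all genes). At an unadjusted p under 0.05 there were 13, beside 16% of all genes. DESeq2 called 7 higher and 6 lower and voom 6 and 3. The list spans the family, antennal members included, and its median log2 fold change was 0.14. The antennal members Ir84a (6.44 ± 1.81, edgeR adjusted p = 0.0776) and Ir8a (5.83 ± 2.09, adjusted p = 0.237) were higher in CS but not called. Ir41a, also antennal, went the other way (-0.95 ± 1.70, adjusted p = 0.864). The other called members, Ir52b and Ir52c, belong to a group of foreleg taste receptors and were not private. Ir52b was at 10.5, 20.4 and 20.0 CPM in CS, 20.3, 18.4 and 30.8 CPM in CO13N and 54.3, 71.3 and 58.7 CPM in RG11N. CS overlapped CO13N, so RG11N carried this difference (-1.15 ± 0.24, adjusted p = 0.0136).

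The pickpocket list held 17 tested channels, of which ppk and ppk29 were lower in CS (11.8%, beside 3.76% of all genes called). ppk29, a subunit of the pheromone-sensing channel of leg taste hairs, was at 49.7, 49.2 and 79.5 CPM in CS, 77.2, 87.7 and 109 CPM in CO13N and 100, 147 and 134 CPM in RG11N. One CS library overlapped CO13N, and the difference of -0.86 ± 0.19 (adjusted p = 0.0211) was lost without replicate 1 or 2 of CS or replicate 3 of RG11N (adjusted p = 0.0551 to 0.131). The private member ppk, a channel of mechanosensory and pain neurons, differed by -1.02 ± 0.25 (adjusted p = 0.0336), and its call was lost in 5 of the 9 omissions (adjusted p up to 0.145). ppk23 differed by -0.34 ± 0.16 (adjusted p = 0.305). Of the 34 gustatory receptors tested, edgeR, DESeq2 and voom called 0, and 4 had an unadjusted p under 0.05 in edgeR. With the odorant receptor sum in the fit 0 genes of the ionotropic, pickpocket, gustatory, odorant-binding and CheA and CheB lists were called.

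Of 34 odorant-binding protein genes tested, 4 were called higher and 1 lower in CS (14.7%, beside 3.76% of all genes), none of them private. The list spans the family and includes antennal members such as Obp83a. Obp57b was at 279, 316 and 259 CPM in CS, 232, 187 and 208 CPM in CO13N and 145, 164 and 192 CPM in RG11N, so that CS lay above both other strains, which overlapped each other. It rose by 0.61 ± 0.12 on the log2 scale in CS (adjusted p = 0.0105), a call lost without replicate 2 of CS (adjusted p = 0.0831). CheB38a, one of the secreted CheB proteins of taste hairs, was at 378, 430 and 670 CPM in CS, 216, 166 and 302 CPM in CO13N and 33.5, 40.1 and 29.7 CPM in RG11N. It differed by 2.47 ± 0.21 (adjusted p = 5.63e-05), in 3 steps from CS over CO13N to RG11N with no overlap between strains.

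Detoxifying enzymes were called often, with members on each side. In CS 8 of the 71 P450 genes tested were higher and 6 lower (19.7%), and 4 of the 35 glutathione S-transferases were higher and 5 lower (25.7%). Over all tested genes 3.76% were called. GstE11 (2R, 18503608 to 18505025) was at 112, 102 and 107 CPM in CS, 19.4, 13 and 12.3 CPM in CO13N and 14.0, 21.0 and 23.0 CPM in RG11N. GstE5, of the same enzyme class, was at 31.8, 40.9 and 40.6 CPM in CS, 138, 132 and 106 CPM in CO13N and 128, 102 and 136 CPM in RG11N. Neither overlapped between the groups, and each was called in all 9 omissions and with the receptor sum in the fit. GstE11 differed by 2.66 ± 0.17 (adjusted p = 6.13e-07) and GstE5 by -1.71 ± 0.15 (adjusted p = 9.83e-06).

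Cyp6a14, Cyp6a2 and Cyp6a20 were the private P450 genes with the lowest p or the largest folds. Cyp6a14 was at 17.5, 17.6 and 9.66 CPM in CS, 2.14, 1.76 and 0.734 CPM in CO13N and 1.04, 0.251 and 0.292 CPM in RG11N, higher in CS by 4.03 ± 0.45 (adjusted p = 8.94e-05). Cyp6a2, a P450 linked to insecticide resistance, was at 1.08, 0.861 and 1.25 CPM in CS, 34.6, 17.7 and 14.0 CPM in CO13N and 7.95, 6.60 and 10.6 CPM in RG11N, a difference of -3.67 ± 0.37 (adjusted p = 3.52e-05). Cyp6a20, known for its effect on male aggression after social experience, was at 180, 181 and 181 CPM in CS, 496, 490 and 476 CPM in CO13N and 730, 568 and 632 CPM in RG11N. It differed by -1.63 ± 0.12 (adjusted p = 1.85e-06), and the CS libraries differed from each other by about 1 CPM. All 3 calls held in all 9 omissions and with the receptor sum in the fit.

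Cyp4d21 and Cyp313a1, named after their values were seen, were private genes with high counts. Cyp4d21, a sex-biased P450 linked to male mating, averaged 4820 ± 517 CPM in CS, 2390 ± 357 CPM in CO13N and 3110 ± 416 CPM in RG11N (SD, n = 3 each). Cyp313a1 averaged 10500 ± 357 CPM in CS, 5900 ± 1350 CPM in CO13N and 5770 ± 269 CPM in RG11N (SD, n = 3 each). Their differences were 0.82 ± 0.13 and 0.85 ± 0.14 (edgeR adjusted p = 0.00229 and 0.00265). Neither was called with the receptor sum in the fit (adjusted p = 0.389 and 0.327).

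**Figure D4:**
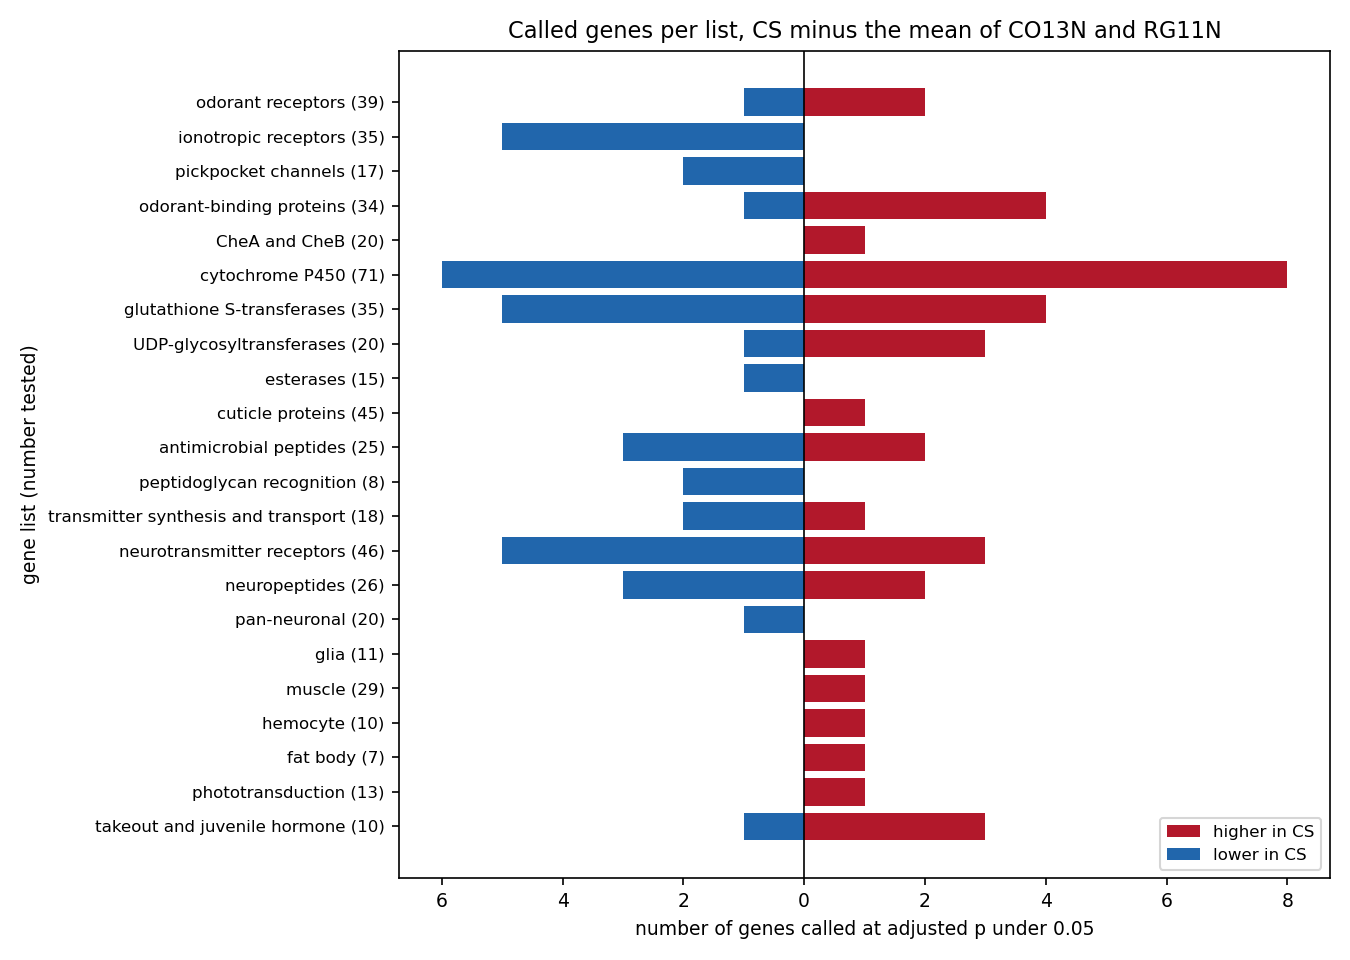
Number of genes called higher (red, to the right) and lower (blue, to the left) in CS at an adjusted p under 0.05 in each gene list that held at least 1 called gene, with the number of tested genes in parentheses; the Turandot list, with 2 tested genes, is not drawn. Cytochrome P450 genes had 8 higher and 6 lower, and ionotropic receptors 0 higher and 5 lower. The lists of ionotropic receptors and odorant-binding proteins include antennal members. Over all tested genes 3.76% were called.

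The takeout and juvenile hormone list had 10 tested genes, of which 3 were private and higher in CS and 1 was lower. This is 40% called, beside 3.76% of all genes. The gene to encodes takeout, a secreted protein of fat body linked to feeding and male courtship. It was at 159, 184 and 314 CPM in CS, 30.5, 24.3 and 43.9 CPM in CO13N and 57.9, 19.8 and 23.9 CPM in RG11N. The groups did not overlap, and the difference was 2.71 ± 0.40 (adjusted p = 0.0141). The call on to was lost without replicate 1 or 2 of CO13N or replicate 2 of CS (adjusted p = 0.0521 to 0.0562). Jheh1 and Jheh2, epoxide hydrolases that break down juvenile hormone, were higher by 0.77 ± 0.15 (adjusted p = 0.00936) and 0.61 ± 0.12 (adjusted p = 0.0122). Jheh1 lost its call without replicate 2 of CS (adjusted p = 0.0805), and Jheh2 without replicate 1 or 2 of CS (adjusted p = 0.0577 and 0.095). None of to, Jheh1 and Jheh2 was called with the receptor sum in the fit (adjusted p = 0.351, 0.351 and 0.435). Their neighbour Jheh3, looked up afterwards, was at 681, 673 and 696 CPM in CS, 691, 830 and 720 CPM in CO13N and 899, 615 and 526 CPM in RG11N (-0.06 ± 0.15, adjusted p = 0.912). Jhe, the esterase for the same hormone, was called lower in CS at -1.01 ± 0.25 (adjusted p = 0.0364), but one CS library overlapped CO13N, and the call was lost in 7 of the 9 omissions (adjusted p up to 0.203).

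Private genes with known metabolic roles were found on each side. Nmdmc, a mitochondrial enzyme of folate metabolism, was at 71.8, 43.4 and 48.6 CPM in CS, 9.07, 11.6 and 13.5 CPM in CO13N and 10.7, 10.8 and 10.3 CPM in RG11N. It was higher in CS by 2.31 ± 0.18 (adjusted p = 2.99e-06), with no overlap. NT5E-2, an ectonucleotidase that makes adenosine from AMP, was at 11.0, 5.71 and 9.56 CPM in CS, 91.0, 88.3 and 104 CPM in CO13N and 95.1, 109 and 106 CPM in RG11N. Its difference of -3.49 ± 0.20 (adjusted p = 2.03e-07) was called in all 9 omissions and with the receptor sum in the fit; its exons overlap CG43110 on the opposite strand. Acbp2, an acyl-CoA-binding protein named after its values were seen, was at 30.8, 28.3 and 24.0 CPM in CS, 169, 217 and 172 CPM in CO13N and 121, 122 and 111 CPM in RG11N. CS was again below all 6 other libraries (-2.42 ± 0.14, adjusted p = 2.03e-07).

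Arc1 and Arc2 are neighbouring genes on 2R whose products resemble retroviral capsid proteins; both are named after their values were seen. Arc1 was at 347, 364 and 382 CPM in CS, 2050, 2180 and 1880 CPM in CO13N and 1040, 1280 and 750 CPM in RG11N. Arc2 was at 14.5, 13.6 and 13.1 CPM in CS, 32.8, 36.8 and 33.9 CPM in CO13N and 30.4, 27.7 and 32.7 CPM in RG11N. CS was the lowest strain in both, with differences of -1.99 ± 0.16 (adjusted p = 4.18e-06) and -1.23 ± 0.15 (adjusted p = 0.000242). For Arc1 CO13N also lay above RG11N, which is why it sits at the edge of the private rule.

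Among private genes with a mean log2 CPM of at least 0 over the 9 libraries, the largest fold higher in CS was that of Culd, a CUB and LDLa domain protein known from photoreceptors. Culd (FBgn0035880; 3L, 8352355 to 8356296) was at 95.8, 46.8 and 117 CPM in CS, 0.964, 2.12 and 1.04 CPM in CO13N and 3.78, 4.45 and 1.94 CPM in RG11N. The lowest CS library was more than 10 times the highest of the others, and the difference was 5.32 ± 0.38 (adjusted p = 5.92e-05), called in all 9 omissions. TpnC4, a troponin C of muscle, was at 7.13, 9.23 and 15.8 CPM in CS, 0.271, 0.181 and 0.306 CPM in CO13N and 0.112, 0.789 and 0.454 CPM in RG11N. It was higher in CS by 4.98 ± 0.53 (adjusted p = 5.92e-05), while it was the only one of 29 tested muscle genes that was called and the muscle sums of the strains overlapped. Ptp52F, a receptor tyrosine phosphatase of growing axons, was at 7.03, 14.4 and 9.73 CPM in CS, 0.843, 0.673 and 1.01 CPM in CO13N and 0.056, 0.61 and 0.778 CPM in RG11N (4.03 ± 0.55, adjusted p = 0.000555). Neither TpnC4 nor Ptp52F was called with the receptor sum in the fit (adjusted p = 0.125 and 0.44).

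The other genes named for their fold in the higher direction included CG7342, fuss and lncRNA:CR43963. CG7342 was at 24.5, 66.3 and 21.3 CPM in CS, 1.60, 3.78 and 2.75 CPM in CO13N and 4, 5.89 and 10.8 CPM in RG11N. CG7342 is one of the 7 genes that rose with the antennal transcripts: it was highest in replicate 2 of CS and replicate 3 of RG11N, and its difference was 3.11 ± 0.44 (adjusted p = 0.00463) but 1.59 with the receptor sum in the fit (adjusted p = 0.423). fuss, a Ski/Sno family co-regulator of transcription, was at 2.33, 4.89 and 3.88 CPM in CS, 0.331, 0.647 and 0.550 CPM in CO13N and 0.532, 0.646 and 0.518 CPM in RG11N. Although no library overlapped, its adjusted p was 0.0483 and the call was lost in each of the 9 omissions (adjusted p = 0.0642 to 0.249). lncRNA:CR43963, which overlaps Smr, was higher by 2.58 ± 0.50 (adjusted p = 0.00864) and lost its call without replicate 1 of CS (adjusted p = 0.0621). Neither fuss nor lncRNA:CR43963 was called with the receptor sum in the fit (adjusted p = 0.699 and 0.14). Of the 12 higher genes named for their fold, 9 were called in all 9 omissions and 5 with the receptor sum in the fit; of the 12 lower genes, 11 and 9 were.

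Among the lower genes CG16820 was at 2.13, 3.6 and 3.05 CPM in CS, 35.7, 39.9 and 29.7 CPM in CO13N and 19.3, 27.7 and 29.6 CPM in RG11N (-3.36 ± 0.25, adjusted p = 1.85e-06). CG13043 was at 1.32, 0.47 and 0.346 CPM in CS, 32.0, 82.0 and 32.0 CPM in CO13N and 13.8, 14.5 and 13 CPM in RG11N (-5.16 ± 0.55, adjusted p = 0.000639). Both genes lay below every other library in all 3 CS libraries. The rest were asRNA:CR45330, lncRNA:CR43704 and the pseudogenes CR43170 and CR43377, all under 1 CPM in each CS library; the call on lncRNA:CR43704 was lost without replicate 2 of CS or replicate 2 or 3 of CO13N (adjusted p = 0.052 to 0.0719).

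Some genes had no count at all in CS. Past the filter, 189 genes had no count in any CS library, of which 16 were called lower and 12 were private. With at least 30 counts required in each of the other strains, 76 genes lacked counts in CS, 35 in CO13N and 40 in RG11N; CS also held the shallowest library. CG3397 had no count in CS and was at 13.3, 20.6 and 17.2 CPM in CO13N and 7.51, 6.50 and 4.18 CPM in RG11N, at least 343-fold lower in CS (adjusted p = 1.85e-06). CG16789 was at least 127-fold lower (adjusted p = 9.40e-05), with an exon overlap with CG16790 on the opposite strand, and CG43233 at least 106-fold lower (adjusted p = 0.000313). All 3 were called in all 9 omissions. CG33296, named after its values were seen, had 1 count in CS and 281 in CO13N and RG11N together, a ratio of 122 per count of total depth (95% interval 21.6 to 4.82e+03, counting error only). Its adjusted p was 0.0497, and the call was lost in each of the 9 omissions (adjusted p up to 0.128).

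CG3397 lies in a run of 3 neighbouring private genes on 3R (11978574 to 11984541), all lower in CS. Its neighbour CG12224 was at 0, 0 and 0.242 CPM in CS, 10.1, 11.5 and 11.8 CPM in CO13N and 12.6, 13.4 and 9.66 CPM in RG11N. CG18547 was at 6.90, 7.32 and 3.15 CPM in CS, 14.7, 16.8 and 13.9 CPM in CO13N and 14.9, 12.3 and 14.3 CPM in RG11N. The run thus holds 2 genes near or at 0 in CS and 1, CG18547, with a log2 difference of -1.32 ± 0.28 (adjusted p = 0.0135). These 3 were all the tested genes in the span. With the receptor sum in the fit CG18547 was not called (adjusted p = 0.329), while CG3397 and CG12224 were (adjusted p = 0.000233 and 0.00994).

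A run on 2L (16816660 to 16858714) held 3 private genes higher in CS among 8 tested. The genes were mdy, the acyltransferase that makes triglycerides, CG31810 and CG31809. mdy was at 62.5, 76.2 and 50.5 CPM in CS, 39.3, 25.1 and 30.8 CPM in CO13N and 22.5, 24.0 and 26.8 CPM in RG11N. CG31809 was at 43.5, 73.7 and 45.9 CPM in CS, 9.01, 7.33 and 8.93 CPM in CO13N and 21.6, 10.9 and 15.1 CPM in RG11N. All 3 lay above the other strains in every CS library, with differences of 1.18 ± 0.16, 1.85 ± 0.19 and 2.23 ± 0.22 for mdy, CG31810 and CG31809 (adjusted p = 0.000628, 5.63e-05 and 2.51e-05). None of the 3 was called with the receptor sum in the fit (adjusted p = 0.335, 0.137 and 0.0994). The other runs of 3 private genes held changes in each direction: Rint1 (-0.57) and Cln7 (-0.71) lower and pst (0.47) higher on 3L, and CG31288 (2.11) and CG13659 (1.43) higher and CHKov2 (-0.66) lower on 3R, as log2 differences. Of these, CG31288 and CG13659 were called in all 9 omissions and Rint1 in none. Neither CG31288 nor CG13659 was called with the receptor sum in the fit (adjusted p = 0.44 and 0.412). On X, the genes CG32640 and CG32641, named after their values were seen, have the same annotated length and lie close together, so that reads may be shared between them. CG32640 averaged 94.3 ± 15.8 CPM in CS, 30.1 ± 1.11 CPM in CO13N and 26.7 ± 3.77 CPM in RG11N (SD, n = 3 each), a difference of 1.73 ± 0.13 (edgeR adjusted p = 2.42e-06).

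Conversely, 5 genes past the filter had counts in CS and none in the 6 other libraries, of which CG6067 and CG30416 were called. CG6067 was at 3.28, 4.66 and 1.70 CPM in CS, at least 204-fold higher than the floor of the 6 others (adjusted p = 0.00548). CG30416 was at 0.744, 4.26 and 1.90 CPM in CS, at least 143-fold higher (adjusted p = 0.0167), and was not called without replicate 2 of CS (adjusted p = 0.124). For both, the highest library was replicate 2 of CS, the richest of the 9 libraries in antennal transcripts. Neither was called with the receptor sum in the fit (adjusted p = 0.339 and 0.6). In the hybrid CG6067 was at 0, 0 and 2.62 CPM, with counts only in replicate 3, which also held antennal transcripts. CG30416 was at 0, 0.803 and 0.31 CPM there. CG6067 overlaps fs(1)M3 on the opposite strand. The others, CG10116, lncRNA:CR44241 and CG4839, were under 2 CPM in every CS library and not called (adjusted p = 0.0639, 0.0593 and 0.0714).

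Immune genes were called in both directions. Of 25 antimicrobial peptide genes 2 were higher and 3 lower in CS (20%, beside 3.76% of all genes). Only the peptide gene BomT3 among them was private. It was at 86.1, 99.5 and 56.7 CPM in CS, 153, 176 and 102 CPM in CO13N and 217, 184 and 147 CPM in RG11N. BomT3 differed by -1.0 ± 0.22 (adjusted p = 0.0254), a call lost without replicate 1 or 3 of CS, replicate 1 of CO13N or replicate 2 of RG11N (adjusted p = 0.0518 to 0.0859). With the receptor sum in the fit BomT3 was not called (adjusted p = 0.654). BomBc1, another Bomanin, was at 23.9, 9.66 and 7.62 CPM in CS and 20.2, 15.5 and 28.4 CPM in CO13N and had no count in RG11N, so its call rests on RG11N. Its cluster neighbour BomBc2 was lower in CS at 9.02, 2.31 and 2.18 CPM, against 37.5, 38.9 and 44.1 CPM in CO13N and 9.75, 16.9 and 11.6 CPM in RG11N, and lost its call in 8 of the 9 omissions (adjusted p up to 0.111). Similar sequences within this cluster may share reads. The stress peptide gene TotX, at 10.9, 4.93 and 2.8 CPM in CS, 235, 157 and 165 CPM in CO13N and 7.48, 4.41 and 7.55 CPM in RG11N, was called lower (adjusted p = 0.0329) although CS overlapped RG11N and CO13N alone was high; it kept the call in 2 of the 9 omissions (adjusted p up to 0.178).

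Single marker genes of glia and blood cells were called. Gs2, the glial glutamine synthetase, was at 821, 945 and 816 CPM in CS, 588, 565 and 534 CPM in CO13N and 491, 491 and 617 CPM in RG11N (0.65 ± 0.12, adjusted p = 0.00453), the only one of 11 glial genes called (9.09%, beside 3.76% of all genes); it was not called with the receptor sum in the fit (adjusted p = 0.584). Pxn, the peroxidasin of blood cells, was at 26.7, 19.3 and 24.0 CPM in CS, 9.31, 12.3 and 7.55 CPM in CO13N and 16.1, 14.1 and 6.06 CPM in RG11N. Pxn differed by 1.10 ± 0.27 (adjusted p = 0.0346), lost that call without any CS library or replicate 1 or 3 of CO13N (adjusted p = 0.0634 to 0.158), and was the only one of 10 hemocyte genes called (10%). Summed over 4 hemocyte markers the level was 31, 19.6 and 28.2 CPM in CS, 18.7, 17.4 and 16.5 CPM in CO13N and 21.7, 20.9 and 10.4 CPM in RG11N, which overlap. Most of this sum is Pxn itself; the hemocyte genes Hml and eater differed by -1.07 ± 0.58 (adjusted p = 0.405) and -2.31 ± 1.62 (adjusted p = 0.549).

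Several large groups held no called gene with edgeR. None of 83 ribosomal protein genes was called (12 at an unadjusted p under 0.05, beside 16% of all genes; 2 with DESeq2 and 1 with voom), nor of 60 nuclear genes of oxidative phosphorylation (4 unadjusted; 0 with either tool). The sex determination genes fru and dsx, which shape the male's sensory circuits, differed by 0.08 ± 0.13 (adjusted p = 0.853) and 0.24 ± 0.13 (adjusted p = 0.387). fru was at 89.6, 84.5 and 109 CPM in CS, 87.1, 84.8 and 83.2 CPM in CO13N and 87.7, 110 and 85.4 CPM in RG11N, so the strains overlapped.

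The hybrid, which has CS as one parent, gives these genes a further reading in libraries that the rule did not use. On a scale of CPM with 1 at the CS mean and 0 at the CO13N mean, the hybrid's mean lay between them for 182 of the 200 private genes, beyond CO13N for 16 and beyond CS for 2. The median position was 0.40 for the higher and 0.40 for the lower genes, with quartiles of 0.27 to 0.58 and 0.22 to 0.57. On a log2 scale the medians were 0.54 and 0.26, so the position depends on the scale. All 12 private genes with no count in CS had counts in the hybrid. This is a description with no test, since the positions use the same CS and CO13N libraries that chose the genes.

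**Figure D5:**
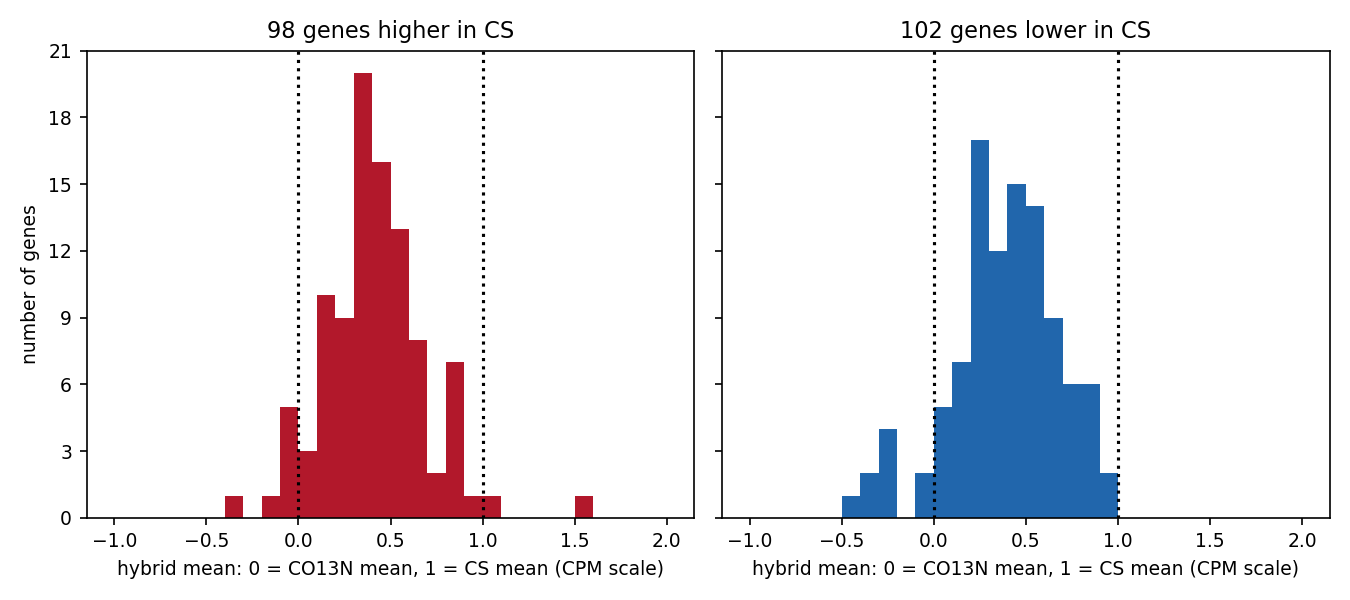
Position of the hybrid mean of each private gene on a CPM scale where 0 is the CO13N mean and 1 the CS mean (dotted lines), for 98 genes higher and 102 lower in CS. Bars count genes; most lie between the parents, with a median of 0.40 in each panel.

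Single genes differed widely in this. Culd was at 63.1, 47.7 and 49.0 CPM in the hybrid, a position of 0.609 on the CPM scale. sNPF-R was nearer CO13N, at 9.98, 12.8 and 17.0 CPM (position 0.166). sNPF, at 36.7, 30.1 and 33.2 CPM, was also close to CO13N. GstE11 was at 51.4, 56.6 and 73.9 CPM, a position of 0.496.

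X-linked private genes lay closer to CO13N in the hybrid than autosomal ones. The median position was 0.21 for the 28 private genes on X (quartiles 0.02 to 0.38) and 0.43 for the 170 on the autosomes (quartiles 0.29 to 0.59). It was at least 0.5 for 2 of the 28 X-linked and 65 of the 170 autosomal genes. The 2 X-linked genes were out (0.65) and OtopLc (0.55). On the log2 scale the median was 0.10 on X and 0.44 on the autosomes. CG15322 on X, for example, had no count in CS and averaged 7.59 CPM in the hybrid, 5.85 CPM in CO13N and 0.915 CPM in RG11N. The X-linked gene t averaged 193 CPM in the hybrid, 58.7 CPM in CS and 197 CPM in CO13N, and the pseudogene CR43377 8.71 CPM in the hybrid, 0.369 CPM in CS and 10.9 CPM in CO13N. A male fly carries a single X, inherited from its mother. Which strain was the mother of the hybrid is not given in the labels, and its part in these positions was not tested. CG15322, out, OtopLc and the medians of X and autosomes were singled out after their values were seen.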

How the data were processed

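RNA was measured in male forelegs. The raw counts per FlyBase gene deposited by the authors were used; their processing used Subread and dm6, with no version given, per the submitters' processing notes. Annotation release, strandedness and treatment of multi-mapping reads are not given in the sources used here. Symbols and positions came from Ensembl BDGP6.54.115, the same assembly; 97 of 17807 identifiers had no symbol there (0.475% of all counts) and were kept, and 4529 had no count in the 9 libraries.

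Genes passed filterByExpr at a minimum count of 10, leaving 10646. One edgeR 4.0.16 model (R 4.3.3) of 3 strain means, with TMM factors and robust quasi-likelihood tests, gave the contrast CS minus the mean of CO13N and RG11N; p-values were adjusted by Benjamini-Hochberg over all genes and called under 0.05. Values after ± are approximate standard errors beside log2 fold changes and SD of 3 libraries beside CPM. CPM of single genes used TMM-scaled sizes (with the hybrid, TMM over 12 libraries); sums over markers and receptors and the values in the antennal plot used total counts. CPM does not account for gene length, so levels are not compared between genes. The 3-count floor was 0.0833 to 0.114 CPM in a library; folds against no count use 3 counts over the pooled libraries of the group, and floors and intervals cover counting error only.

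Named genes were the 12 per direction with the largest fold among private genes of mean log2 CPM of at least 0 without an antennal mark, called antennal genes, up to 4 called genes per list by p, genes without counts in a group, genes in the 4 largest runs (3 private genes within 50 kb steps), and a list of single genes; others are said to be named after their values were seen. The members, lists and rules were chosen with earlier results of these data known. The pipeline was tested on simulated data. Alternatives were DESeq2 1.42.0, voom (limma 3.58.1), other size factors and filters, a fit of 2 groups, the hybrid in the fit, a replicate block, receptor and muscle sums as covariates and omission of each library. Python 3.11.15 with pandas 2.3.3, numpy 2.4.6, scipy 1.17.1 and matplotlib 3.10.9 made the tables and figures.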

Additional observations from a re-analysis of the deposited data

How the results depend on the processing

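The counts of called genes, 210 higher and 190 lower in CS, and of private genes, 98 higher and 102 lower, moved by over 1.5 times under few settings. DESeq2 called 373 higher and 378 lower (private 150 and 167), 2 groups with no strain term 86 and 86 (private 76 and 76), and the odorant receptor sum as covariate 24 and 43 (private 14 and 32). Leaving out each library in turn gave 105 to 236 higher and 117 to 192 lower genes, and 60 to 118 and 75 to 125 private ones. The lowest counts came without replicate 2 of CS (105 higher, 118 lower, private 60 and 75) and replicate 1 of CS (136 and 117, private 76 and 76). Of the 200 private genes 105 were called in all 9 omissions and 138 in at least 7; 200 were called by DESeq2, 173 by voom, 150 with 2 groups, 167 without replicate 3 of RG11N and 155 with the muscle sum as covariate, a setting chosen after seeing the data. No named gene called in the reported fit changed its sign under any of these settings. The causes were not tested.

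Replicates with the same number did not deviate together (correlations -0.096 to 0.098), so the numbers give no pairing. With the replicate number as a block 216 genes were higher and 186 lower (private 92 and 95), and 175 of the 200 private genes were called.

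The design has 3 libraries a strain and 6 residual degrees of freedom, and genes under about 0.1 CPM lie below the floor.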
